A study of Mus musculus with 24 samples.

Results

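Untreated spheroids were compared with untreated monolayers of mouse ovarian surface epithelial (mOSE) cells, the cell line m1102, in 6 of the 24 RNA-seq libraries of the series. The libraries were chosen by their labels alone: 3 untreated spheroid libraries and 3 untreated monolayer libraries, with every gene of the table taken in. Spheroids are floating clusters that formed in ultra low attachment plates, and monolayers are the same line attached to its dish. Both groups grew in alpha-MEM with fetal bovine serum, ITSS (a supplement named so in the labels) and epidermal growth factor (EGF), so EGF was present in both. A parallel pair, used here only to set the untreated difference against it, had received the cytokine TGFB1 at 10 ng/mL: 3 TGFB1 spheroid libraries, treated for 4 days before low-attachment culture, and 3 TGFB1 monolayer libraries, for which the labels give no time. All 12 libraries come from this 1 line, so they stand for a single source of surface cells.

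The ovarian surface epithelium is a modified mesothelium, a flat single layer that keeps both keratin and vimentin and rests on a thin basement membrane. It breaks and heals at each ovulation, and cells shed from it can survive unattached for a time. Losing attachment removes integrin and actin tension, which mesothelial cells read through SRF and YAP, while the inside of a cell cluster receives less oxygen and fewer nutrients.

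The deposited values are TPM, levels adjusted for transcript length and library, scaled further by the authors ("scaled TPM" here), and they summed to 955433 to 959545 per spheroid library and to 982493 to 1007074 per monolayer library. These values hold no read totals, so the sequencing depth is unknown. Between-library correlations of log2(scaled TPM + 1) were 0.991 to 0.993 among the monolayers, 0.991 between spheroids 1 and 2, and 0.9704 and 0.9699 for spheroid 3 against them, so spheroid 3 stood apart. All 6 monolayer titles of the table call the data re-analyzed and no spheroid title does, so culture and the origin of the libraries cannot be told apart. The labels of monolayers 1 and 2 cite the same earlier sample, and no label tells whether replicate libraries came from different cultures. The p-values measure the spread between replicate libraries, pooled over all 12 libraries with the TGFB1 ones included. That spread may be technical. In bulk RNA, fewer cells of a kind and less RNA per cell cannot be told apart.

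A gene was called when its limma adjusted p was under 0.05, and "rose" and "fell" below mean called higher and called lower in spheroids. Of 13509 genes tested, 27.6% rose and 27.7% fell, so counts in a gene list have to be read against about 1 gene in 4 moving each way. Fold changes are differences of log2(scaled TPM + 1) with their standard error, over 3 libraries a group, and values are given in the order of the library numbers. The added 1 makes the fold changes of genes at low levels smaller. The standard error rests on the spread pooled over the 12 libraries, so it can be wide where only the TGFB1 libraries of a gene are uneven. The plot of list shares sets 26 of the lists against that background.

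**Figure D1:**
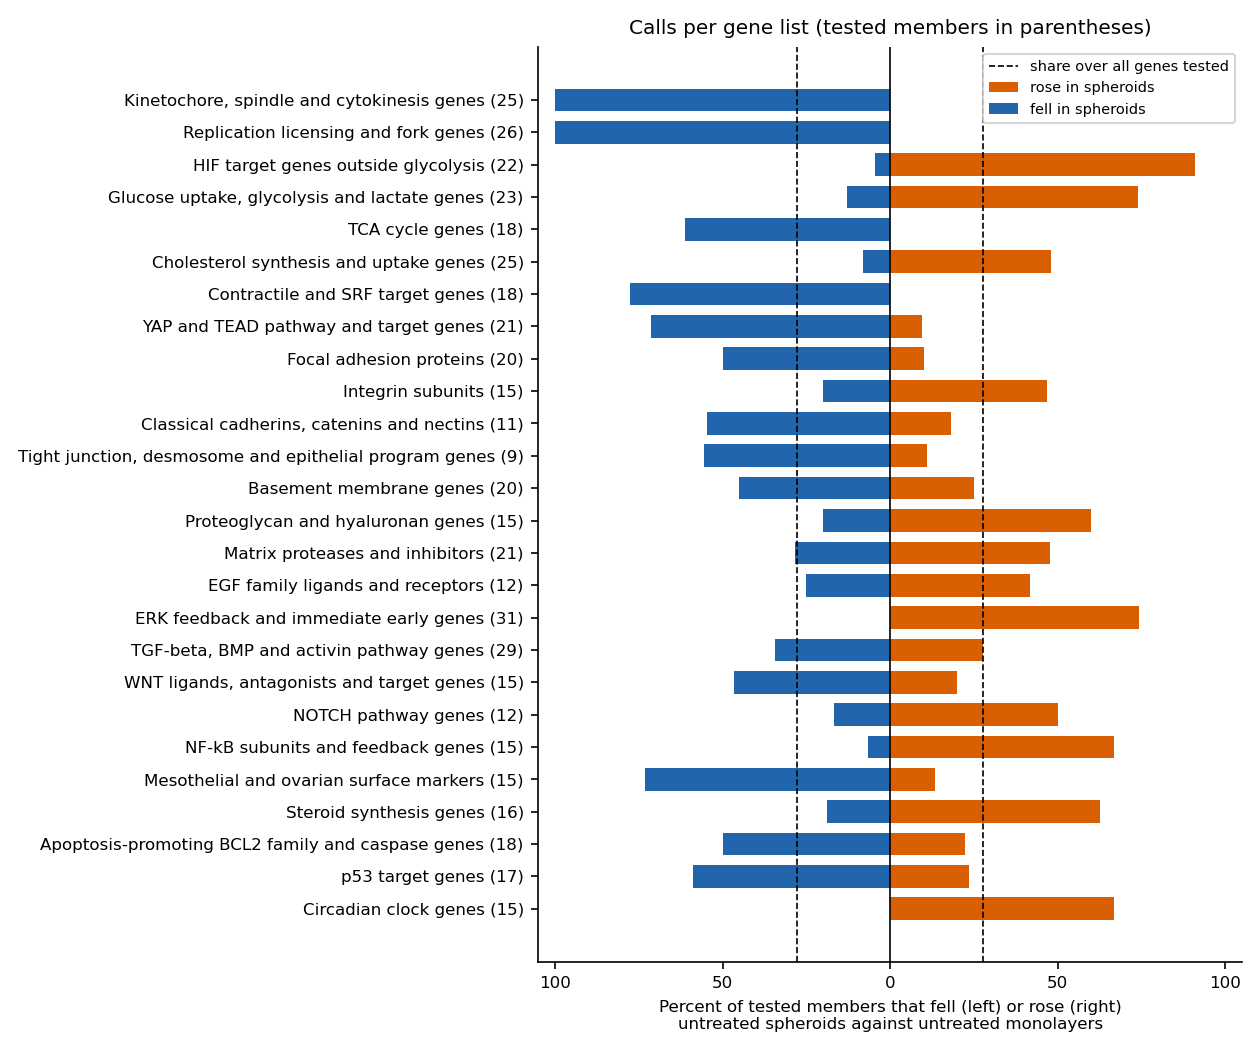
Share of the tested members of 26 gene lists that rose (right, orange) or fell (left, blue) in untreated spheroids against untreated monolayers, in percent of the members tested; dashed lines mark the shares over all genes tested, 27.6% and 27.7%. The kinetochore and replication lists reach 100% on the left, and the HIF target list reaches furthest to the right.

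Cell cycle genes fell together. All 25 of 25 kinetochore, spindle and cytokinesis genes fell, with a median log2 fold change of -3.62, and so did all 26 of 26 replication licensing and fork genes, with a median of -1.46; the median over all genes tested was 0.0061. Plk1, a kinase that drives mitotic entry and exit, read 1.995, 1.52 and 1.71 scaled TPM in the spheroids, against 51.7, 40.8 and 52.7 in the monolayers (log2 fold change -4.16 ± 0.14, limma adjusted p = 1.3e-08). Kif20a, a kinesin of the spindle midzone, read 1.94, 1.88 and 1.99 scaled TPM in the spheroids, against 49.8, 40.1 and 48.4 in the monolayers (log2 fold change -3.998 ± 0.11, limma adjusted p = 7.9e-09). Every spheroid library was far below every monolayer library for both genes, and the spheroids lay within 1 scaled TPM of one another. Cenpa, the histone variant that marks centromeres, had 3.89, 4.14 and 3.39 scaled TPM in the spheroids, against 80.6, 57.2 and 74.1 in the monolayers (log2 fold change -3.89 ± 0.13, limma adjusted p = 1.3e-08).

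The median decrease was larger in the mitotic list than in the replication list, a difference that was not tested, and cyclins, CDKs and E2F factors fell in 14 of 19 and rose in 3. Cdk1, the mitotic kinase, kept 28.3, 35.4 and 36.4 scaled TPM in the spheroids, against 211, 159 and 221 in the monolayers (log2 fold change -2.52 ± 0.14, limma adjusted p = 2.1e-07). Cdk4, the G1 kinase, read 251, 260.1 and 278 scaled TPM in the spheroids, against 725, 691 and 680.1 in the monolayers (log2 fold change -1.41 ± 0.08, limma adjusted p = 2.1e-07). Pcna, the sliding clamp of replication, read 127, 133 and 116 scaled TPM in the spheroids, against 263, 211 and 267 in the monolayers (log2 fold change -0.97 ± 0.16, limma adjusted p = 4.9e-04). No library of one group overlapped the other for these genes. Ccnd2, a D-type cyclin, rose instead (0.78 ± 0.17), as did Ccnd1 at low levels (0.79 ± 0.21). Of 8 CDK inhibitors and pocket proteins tested, 2 rose and 2 fell, close to the shares over all genes tested. The inhibitors Cdkn1a (1.15 ± 0.25) and Cdkn2d (1.01 ± 0.11) were higher, the pocket protein Rbl1 (-0.66 ± 0.10) and the phosphatase Cdkn3 (-3.34 ± 0.24) lower. Cdkn1b, the inhibitor p27, had 81.8, 82.4 and 119 scaled TPM in the spheroids, against 116, 130.5 and 121 in the monolayers, which did not pass the test (limma adjusted p = 0.074), and spheroid 3 lay inside the monolayer range; without it the log2 fold change was -0.57 (limma adjusted p = 0.0099).

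Lmnb1, a lamin of the nuclear envelope, had 13.1, 12.9 and 12.2 scaled TPM in the spheroids, against 67.4, 55.7 and 59.9 in the monolayers (log2 fold change -2.17 ± 0.13, limma adjusted p = 3.1e-07). Top2a, the topoisomerase of dividing cells, had 17.98, 16.5 and 30.5 scaled TPM in the spheroids, against 211, 179 and 209 in the monolayers (log2 fold change -3.20 ± 0.19, limma adjusted p = 4.0e-07). The groups were again fully separate for both, although spheroid 3 kept more Top2a than the other spheroids. Brca1, which acts in homologous recombination, had 0.942, 0.835 and 0.675 scaled TPM in the spheroids, against 6.85, 5.41 and 7.84 in the monolayers (log2 fold change -2.07 ± 0.15, limma adjusted p = 1.5e-06).

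Promoters of the cell cycle genes are shown because these genes moved as one block. Such promoters are known to carry CCAAT boxes, bound by NF-Y, and the cell cycle genes homology region (CHR), bound by repressor complexes of non-dividing cells. RefSeq windows of 250 bases before a start site (GRCm38.p6) were found for 21 of the 25 tested kinetochore genes, and 16 of these held CCAAT on either strand (76.2%), against 35.1% of 20592 windows of 1 start site a gene and 37.03% of the 9635 windows of genes tested here. For the replication list the count was 14 of 21 (66.7%). The CHR letters TTTGAA were in 4 of the 21 kinetochore windows (19.05%) and in 3 of the 21 replication windows (14.3%), against 15.3% of all windows and 10.5% of those of tested genes. A match is a description of the letters and not a test of binding. All 5 stretches shown hold a CCAAT box, so they are examples with a match and do not show its share. Ccnb2 belongs to the list of cyclins, CDKs and E2F factors, whose windows were not counted, and Cdk1 was described with that list above. In the stretches below, read 5′ to 3′ on the gene's strand and without bases that the GENCODE M21 annotation puts in an exon, capitals mark CCAAT (or ATTGG, the same box on the other strand) and TTTGAA (or TTCAAA); the motifs do not overlap one another.
Ccnb2: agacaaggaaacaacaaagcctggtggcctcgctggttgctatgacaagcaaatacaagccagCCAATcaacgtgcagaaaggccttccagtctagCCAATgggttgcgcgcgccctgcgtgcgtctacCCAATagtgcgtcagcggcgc
Aurka: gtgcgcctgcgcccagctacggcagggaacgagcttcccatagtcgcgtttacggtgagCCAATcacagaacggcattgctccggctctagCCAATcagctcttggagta
Bub1: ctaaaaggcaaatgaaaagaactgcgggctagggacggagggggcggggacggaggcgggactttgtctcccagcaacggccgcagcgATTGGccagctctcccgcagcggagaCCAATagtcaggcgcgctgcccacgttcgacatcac
Mki67: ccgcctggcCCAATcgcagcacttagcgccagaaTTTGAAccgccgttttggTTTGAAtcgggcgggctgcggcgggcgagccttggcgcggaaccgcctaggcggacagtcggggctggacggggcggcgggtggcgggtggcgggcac
Cdk1: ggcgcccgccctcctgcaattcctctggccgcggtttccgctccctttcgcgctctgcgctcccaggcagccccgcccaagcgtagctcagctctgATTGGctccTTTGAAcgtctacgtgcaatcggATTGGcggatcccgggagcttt
All 5 lie on the minus strand, Ccnb2 at chr9:70421555-70421704, Aurka at chr2:172370571-172370680, Bub1 at chr2:127831866-127832015, Mki67 at chr7:135716380-135716529 and Cdk1 at chr10:69352939-69353088. The 150 bases shown for Ccnb2, a mitotic cyclin, hold 3 marked boxes. Those of Mki67, the Ki-67 proliferation antigen, and of Cdk1 hold both kinds. Mki67 read 1.26, 0.949 and 1.04 scaled TPM in the spheroids, against 32.8, 25.1 and 33.7 in the monolayers (log2 fold change -3.91 ± 0.12, limma adjusted p = 1.3e-08). Bub1, a spindle checkpoint kinase, read 0.525, 0.533 and 0.463 scaled TPM in the spheroids, against 24.3, 17.4 and 23.6 in the monolayers (log2 fold change -3.90 ± 0.17, limma adjusted p = 4.7e-08). Aurka, the centrosomal Aurora kinase, fell as well (-4.06 ± 0.17), and no spheroid reached the lowest monolayer for any of these 3 genes.

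Genes that respond to low oxygen rose in the spheroids. Hypoxia-inducible factors (HIFs) are stabilised when the prolyl hydroxylases lack oxygen, and they switch on genes of glucose use, mitophagy and vessel growth. Of 22 tested HIF targets outside glycolysis, 20 rose and 1 fell, with a median of 1.41. Ankrd37, a direct HIF target, had 56.1, 59.1 and 82.7 scaled TPM in the spheroids, against 5.52, 5.01 and 6.58 in the monolayers (log2 fold change 3.31 ± 0.24, limma adjusted p = 1.5e-06). Bnip3, a mitophagy receptor, had 377, 411 and 424 scaled TPM in the spheroids, against 80.7, 70.4 and 76.8 in the monolayers (log2 fold change 2.40 ± 0.22, limma adjusted p = 7.8e-06). In both, the lowest spheroid was several times the highest monolayer. Vegfa, the vessel growth factor, rose (1.38 ± 0.30). Hilpda, a lipid droplet protein induced by hypoxia, had 57.8, 72.6 and 101 scaled TPM in the spheroids, against 16.4, 12.3 and 12.4 in the monolayers (log2 fold change 2.38 ± 0.26, limma adjusted p = 2.3e-05). Egln1, the prolyl hydroxylase that is itself a HIF target, rose (0.94 ± 0.14). Over the 8 factors and oxygen sensors tested 2 rose and 1 fell, no more than the shares over all genes tested. The Hif1a transcript had 356, 337 and 167 scaled TPM in the spheroids, against 192, 159.8 and 157 in the monolayers. Spheroid 3 lay within the monolayer range, and Hif1a did not pass (limma adjusted p = 0.052); without spheroid 3 its log2 fold change was 1.03 (limma adjusted p = 0.0014). It also passed when TGFB1 spheroid 1 or 3 was left out of the shared estimate of spread (limma adjusted p = 0.0351 and 0.0434). The exception within the list was Pfkfb3, which makes the activator of phosphofructokinase and fell (-1.35 ± 0.18). Car9, often used as a hypoxia marker, had 4.48, 4.29 and 3.90 scaled TPM in the spheroids, against 4.47, 2.77 and 2.44 in the monolayers, and the groups overlapped (limma adjusted p = 0.15); without monolayer 1 it rose by 0.54 (limma adjusted p = 0.022).

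The core of the hypoxia response element, ACGTG, was in the 250-base window of 8 of 16 HIF target genes (50%) and of 9 of 22 glucose and lactate genes (40.9%), against 17.3% of all windows and 21.7% of those of tested genes. The Bnip3 and Ddit4 stretches are shown as examples with a match, with ACGTG or its reverse CACGT in capitals; where both strands match, the letters join to CACGTG.
Bnip3: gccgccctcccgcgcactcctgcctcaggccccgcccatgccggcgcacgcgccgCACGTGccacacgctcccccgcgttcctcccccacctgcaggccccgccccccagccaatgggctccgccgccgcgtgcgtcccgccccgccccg
Ddit4: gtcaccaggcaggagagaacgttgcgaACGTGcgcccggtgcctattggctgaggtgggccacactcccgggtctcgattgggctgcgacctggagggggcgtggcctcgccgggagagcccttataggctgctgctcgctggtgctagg
Bnip3 lies at chr7:138909520-138909669 and Ddit4 at chr10:59951835-59951984, both on the minus strand. Ddit4, an inhibitor of mTORC1 induced by hypoxia and energy stress, had 269, 306 and 334 scaled TPM in the spheroids, against 88.2, 93.6 and 95.9 in the monolayers (log2 fold change 1.69 ± 0.14, limma adjusted p = 2.9e-06).

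Metabolic genes moved in opposite directions around pyruvate. Of 23 glucose uptake, glycolysis and lactate genes, 17 rose and 3 fell; of 18 genes of the tricarboxylic acid (TCA) cycle and its entry, 11 fell and the other 7 did not pass. Pdk1, the kinase that switches off pyruvate dehydrogenase, had 50.2, 51.1 and 46.6 scaled TPM in the spheroids, against 15.3, 14.05 and 10.9 in the monolayers (log2 fold change 1.81 ± 0.23, limma adjusted p = 5.9e-05). Its target subunit Pdha1 had 70.04, 75.4 and 104 scaled TPM in the spheroids, against 180.5, 203 and 201 in the monolayers (log2 fold change -1.24 ± 0.12, limma adjusted p = 1.3e-05). The spheroids were all above the monolayers for the kinase and all below them for the enzyme. Ldhb, the lactate dehydrogenase chain that favours pyruvate, fell (-2.19 ± 0.32), while Ldha, the chain that favours lactate, rose (0.82 ± 0.17). Citrate synthase, Cs (-0.54 ± 0.10), and the malate dehydrogenase Mdh2 (-0.77 ± 0.08) fell as well. Without spheroid 3 the TCA counts were 2 higher and 10 lower. Of the 13 mitochondrially encoded protein genes, 0 were called by limma, with 1 higher and 0 lower at an unadjusted p under 0.05.

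Of 15 serine, one-carbon and glutamine genes, 5 rose and 5 fell, and of 24 fatty acid genes 7 rose and 7 fell, shares close to those over all genes tested. Phgdh, the first enzyme of serine synthesis, had 31.7, 33.7 and 19.7 scaled TPM in the spheroids, against 179.7, 150.1 and 179.9 in the monolayers (log2 fold change -2.57 ± 0.21, limma adjusted p = 3.5e-06). The cystine carrier Slc7a11 (1.81 ± 0.31) and the large neutral amino acid carrier Slc7a5 (2.13 ± 0.34) rose. Cholesterol synthesis and uptake genes rose in 12 of 25 and fell in 2. Without spheroid 3, 20 rose and 2 fell. Fdps, an enzyme of the mevalonate pathway, had 979, 899 and 365 scaled TPM in the spheroids, against 236, 159 and 168 in the monolayers (log2 fold change 1.89 ± 0.44, limma adjusted p = 0.0038). Even spheroid 3 stayed above the highest monolayer. Abca1, which exports cholesterol, had 3.98, 3.79 and 13.3 scaled TPM in the spheroids, against 86.3, 138 and 116 in the monolayers (log2 fold change -4.01 ± 0.44, limma adjusted p = 2.4e-05). Scd1, the fatty acid desaturase, fell (-2.25 ± 0.28).

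Genes of actin tension and of attachment sites fell more often than they rose. Contractile and SRF target genes fell in 14 of 18 tested, and the other 4 did not pass. Myh10, a nonmuscle myosin heavy chain, had 28.9, 26.2 and 50.02 scaled TPM in the spheroids, against 166, 219 and 193 in the monolayers (log2 fold change -2.47 ± 0.24, limma adjusted p = 9.3e-06). Cald1, which binds actin and tropomyosin, had 164, 166 and 298 scaled TPM in the spheroids, against 1082, 1243 and 1218 in the monolayers (log2 fold change -2.55 ± 0.20, limma adjusted p = 2.5e-06). Spheroid 3 had the highest value of the spheroids for both and remained far under the monolayers. Fhl1, a LIM protein of muscle and contractile cells, fell (-3.98 ± 0.16), and Srf itself fell (-0.89 ± 0.11).

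Focal adhesion proteins fell in 10 of 20 and rose in 2. Parva, the parvin that links integrin-linked kinase to actin, had 43.9, 39.6 and 72.6 scaled TPM in the spheroids, against 220.3, 225 and 233 in the monolayers (log2 fold change -2.15 ± 0.18, limma adjusted p = 4.4e-06). Vcl, vinculin, fell (-0.87 ± 0.14), while Tns1, a tensin, rose (1.23 ± 0.19). The integrin subunits went partly the other way, with 7 of 15 higher and 3 lower. Itgb3, the beta subunit that pairs with Itgav to bind vitronectin, had 24.2, 22.4 and 17.7 scaled TPM in the spheroids, against 2.83, 3.33 and 3.61 in the monolayers (log2 fold change 2.39 ± 0.28, limma adjusted p = 3.9e-05). Its partner Itgav rose (0.99 ± 0.13), and so did Itga5, of the fibronectin receptor (1.68 ± 0.22). Itga3, of a laminin receptor, fell (-1.33 ± 0.15).

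The YAP and TEAD list fell in 15 of 21 and rose in 2. YAP is a coactivator that enters the nucleus of spread cells and works through TEAD factors, and its targets include its own inhibitors. Amotl2, an angiomotin that holds YAP in the cytoplasm and is also its target, had 14.9, 13.8 and 13.8 scaled TPM in the spheroids, against 305, 301 and 299 in the monolayers (log2 fold change -4.32 ± 0.06, limma adjusted p = 1.9e-11). Lats2, the kinase that phosphorylates YAP, had 11.1, 11.4 and 14.95 scaled TPM in the spheroids, against 59.9, 66.5 and 71.1 in the monolayers (log2 fold change -2.32 ± 0.12, limma adjusted p = 1.6e-07). Replicates of each group were nearly identical for Amotl2, and no group overlapped for either gene. Ajuba, a LIM protein that inhibits LATS kinases, fell (-2.59 ± 0.11), and Tead1 fell (-1.15 ± 0.08). The target Ctgf had 53.8, 56.8 and 7.24 scaled TPM in the spheroids, against 98.3, 74.7 and 103 in the monolayers and did not pass (limma adjusted p = 0.096), with spheroid 3 far below the rest and a log2 fold change of -0.71 without it (limma adjusted p = 0.36). Leaving out spheroid 3, 12 of the list fell and 3 rose. The letters GGAATG, the core bound by TEAD, were in 10 of 16 windows of the list (62.5%), against 12.1% of all windows and 10.4% of those of tested genes.

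**Figure D2:**
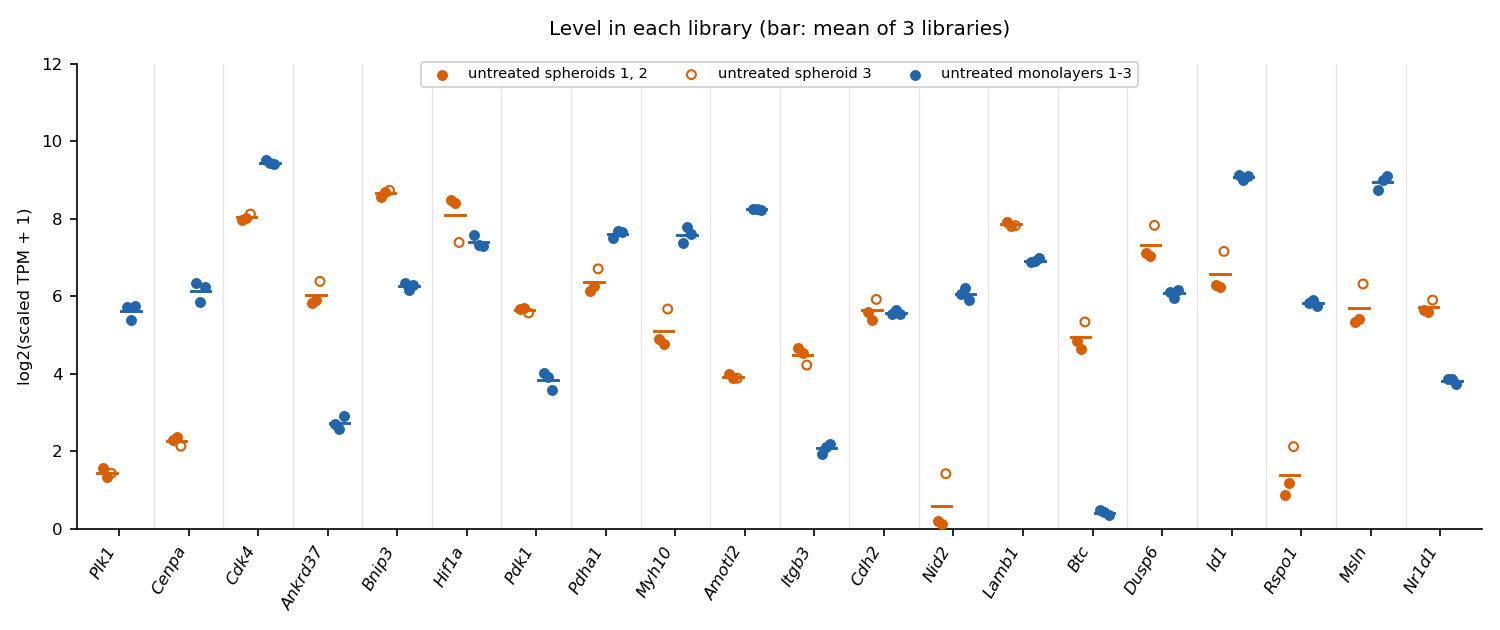
Level of 20 genes named in the text in each library, as log2(scaled TPM + 1) on the vertical axis; orange points are the 3 untreated spheroids and blue points the 3 untreated monolayers, with a bar at each group's mean. The groups do not overlap for the genes drawn, except Hif1a and Cdh2. Spheroid 3 (open circles) is the spheroid nearest the monolayers for several genes, among them Cdk4, Hif1a, Pdk1, Pdha1, Myh10, Itgb3, Nid2, Id1, Rspo1 and Msln.

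Junction genes fell more often than they rose. Classical cadherins, catenins and nectins fell in 6 of 11 and rose in 2, and tight junction, desmosome and epithelial program genes fell in 5 of 9 and rose in 1. Cgn, the tight junction protein cingulin, had 4.26, 5.55 and 2.94 scaled TPM in the spheroids, against 39.3, 35.9 and 32.4 in the monolayers (log2 fold change -2.84 ± 0.27, limma adjusted p = 8.3e-06). F11r, the junctional adhesion molecule JAM-A, had 395, 352 and 338 scaled TPM in the spheroids, against 1179.8, 1496 and 1363 in the monolayers (log2 fold change -1.89 ± 0.21, limma adjusted p = 3.1e-05). Both were lower in each spheroid than in any monolayer. Ctnna1, alpha-catenin, which ties cadherins to actin, fell (-1.13 ± 0.13), as did Ctnnb1, beta-catenin (-0.75 ± 0.15). N-cadherin, Cdh2, had 47.4, 40.96 and 59.6 scaled TPM in the spheroids, against 45.6, 49.1 and 46.1 in the monolayers, and the groups overlapped (limma adjusted p = 0.73).

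Matrix genes moved in both directions. Basement membrane genes rose in 5 of 20, close to the share over all genes tested (27.6%), and fell in 9 (27.7% over all genes tested). Nid2, nidogen 2, a linker between laminin and collagen IV, had 0.157, 0.102 and 1.69 scaled TPM in the spheroids, against 65.8, 73.6 and 58.8 in the monolayers (log2 fold change -5.47 ± 0.55, limma adjusted p = 1.3e-05). Npnt, nephronectin, an integrin ligand of basement membranes, had 0.0349, 0.0602 and 0.0312 scaled TPM in the spheroids, against 9.06, 9.45 and 8.04 in the monolayers (log2 fold change -3.24 ± 0.23, limma adjusted p = 1.2e-06). Both transcripts were below 2 scaled TPM in each spheroid. Collagen IV chains fell by less, Col4a1 with -0.86 ± 0.19 and Col4a2 with -1.21 ± 0.15. Upward, Lamb1, a laminin beta chain, had 241, 226 and 226 scaled TPM in the spheroids, against 117, 119 and 125 in the monolayers (log2 fold change 0.94 ± 0.16, limma adjusted p = 4.6e-04). Col18a1, whose product contains endostatin, had 13.8, 13.8 and 10.8 scaled TPM in the spheroids, against 1.07, 2.01 and 1.08 in the monolayers (log2 fold change 2.55 ± 0.31, limma adjusted p = 4.7e-05). Spheroid and monolayer values of these risers did not overlap.

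Of 14 interstitial collagen and cross-linking genes tested, 2 rose and 5 fell. Col5a2, a chain of the collagen V that nucleates fibrils, had 82.8, 73.2 and 85.2 scaled TPM in the spheroids, against 479, 483 and 508 in the monolayers (log2 fold change -2.60 ± 0.17, limma adjusted p = 8.4e-07). The crosslinking enzymes Lox (-1.82 ± 0.27) and Loxl1 (-1.995 ± 0.14) fell. Col3a1 rose (0.59 ± 0.17). Proteoglycan and hyaluronan genes rose in 9 of 15 and fell in 3. The 3 that fell were small leucine-rich proteoglycans. Ogn, osteoglycin, had 0.633, 0.845 and 0.629 scaled TPM in the spheroids, against 36.8, 42.99 and 37.3 in the monolayers (log2 fold change -4.55 ± 0.21, limma adjusted p = 5.2e-08). Bgn, biglycan, had 151, 142 and 790.4 scaled TPM in the spheroids, against 1681, 2044 and 1818 in the monolayers (log2 fold change -2.84 ± 0.58, limma adjusted p = 0.0017), and Dcn, decorin, fell (-2.44 ± 0.28). Bgn in spheroid 3 was far above the other spheroids and still below the monolayers, and without it the log2 fold change was -3.65. The cell surface carriers Gpc1, a glypican (2.81 ± 0.36), and Sdc4, a syndecan (1.20 ± 0.32), rose, as did Tnfaip6, which modifies hyaluronan (2.64 ± 0.25).

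Among matricellular proteins, 8 of 16 rose and 4 fell. Thbs1, thrombospondin 1, had 25.5, 21.2 and 34.2 scaled TPM in the spheroids, against 293, 304 and 326 in the monolayers (log2 fold change -3.49 ± 0.23, limma adjusted p = 6.7e-07). Sparc, osteonectin, had 1392, 1261 and 1173 scaled TPM in the spheroids, against 2828, 3008 and 2901 in the monolayers (log2 fold change -1.19 ± 0.09, limma adjusted p = 2.4e-06). Fn1, fibronectin, had 492, 435 and 319 scaled TPM in the spheroids, against 159, 148 and 185 in the monolayers (log2 fold change 1.32 ± 0.22, limma adjusted p = 4.7e-04). Thbs1 and Sparc were lower, and Fn1 higher, in each spheroid than in any monolayer. Matrix proteases and their inhibitors rose in 10 of 21 and fell in 6. Mmp19, a metalloproteinase, had 132, 123 and 144 scaled TPM in the spheroids, against 13.9, 16.9 and 16.4 in the monolayers (log2 fold change 3.003 ± 0.19, limma adjusted p = 6.5e-07). Mmp3, stromelysin, had 9.32, 7.78 and 14.1 scaled TPM in the spheroids, against 0.114, 0.0974 and 0.136 in the monolayers (log2 fold change 3.32 ± 0.31, limma adjusted p = 8.0e-06). Mmp3 was near 0 in each monolayer. Timp3, a matrix-bound inhibitor of metalloproteinases, fell (-1.89 ± 0.13).

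In the EGF family, the ligands Btc and Tgfa rose and the receptor genes Erbb2 and Erbb3 fell. Of 12 EGF family genes tested, 5 rose and 3 fell, and the lowest log2 fold change, -1.40, was that of a member not named here. Btc, betacellulin, a ligand of EGFR and ERBB4, had 27.9, 24.1 and 39.5 scaled TPM in the spheroids, against 0.393, 0.345 and 0.282 in the monolayers (log2 fold change 4.53 ± 0.39, limma adjusted p = 4.7e-06). Tgfa, transforming growth factor alpha, another EGFR ligand, had 51.3, 48.4 and 44.02 scaled TPM in the spheroids, against 3.66, 3.82 and 4.25 in the monolayers (log2 fold change 3.32 ± 0.13, limma adjusted p = 2.7e-08). The receptor Egfr itself had 21.2, 24.7 and 26.3 scaled TPM in the spheroids, against 24.5, 24.4 and 27.1 in the monolayers, with overlapping groups (limma adjusted p = 0.7). Both ligands were near or below 4 scaled TPM in each monolayer and above 20 in each spheroid, while the receptors Erbb2 (-1.01 ± 0.17) and Erbb3 (-1.28 ± 0.21) fell. Lrig1, which promotes the degradation of EGFR, rose (1.38 ± 0.11).

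Immediate early genes and feedback genes of the kinase ERK rose in 23 of 31, and the other 8 did not pass. The activity of ERK was not measured. Dusp6, the phosphatase that switches off ERK, had 137, 130.2 and 227 scaled TPM in the spheroids, against 68.6, 60.6 and 70.6 in the monolayers (log2 fold change 1.25 ± 0.19, limma adjusted p = 2.2e-04). Etv4, a PEA3 factor induced by ERK, had 134, 138 and 171 scaled TPM in the spheroids, against 42.9, 40.8 and 55.2 in the monolayers (log2 fold change 1.65 ± 0.15, limma adjusted p = 7.8e-06), and Jun, a subunit of AP-1, rose (1.65 ± 0.16). All spheroids exceeded all monolayers for these genes. Fos had 31.3, 49.05 and 71.2 scaled TPM in the spheroids, against 41.9, 17.7 and 28.6 in the monolayers, and the groups overlapped (limma adjusted p = 0.089). Fos rose by 1.07 (limma adjusted p = 0.033) without spheroid 1 and by 1.06 (limma adjusted p = 0.037) without monolayer 1. The letters TGANTCA, bound by FOS and JUN dimers, were in 0 of 23 windows of the list, which says only that these letters are not in these windows, and in 6.44% of all windows and 4.37% of those of tested genes.

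Several genes of the BMP branch of the TGF-beta superfamily fell. BMPs signal through SMAD1 and SMAD5, whose best-known targets are the Id genes. Bmp4, a ligand, had 1.12, 1.46 and 8.73 scaled TPM in the spheroids, against 97.8, 125 and 118 in the monolayers (log2 fold change -4.94 ± 0.57, limma adjusted p = 3.5e-05). Among targets, Id1 had 77.3, 75.1 and 142 scaled TPM in the spheroids, against 558, 512 and 545 in the monolayers (log2 fold change -2.51 ± 0.29, limma adjusted p = 3.5e-05). Smad6, an inhibitory SMAD induced by BMP, had 5.71, 4.74 and 10.4 scaled TPM in the spheroids, against 63.7, 60.4 and 57.5 in the monolayers (log2 fold change -3.02 ± 0.31, limma adjusted p = 1.7e-05). All spheroids lay below all monolayers, spheroid 3 being the highest spheroid for these, and without it Bmp4 had -5.64. Id4 fell (-3.17 ± 0.30), and Id2 had 5.76, 6.25 and 1.38 scaled TPM in the spheroids, against 3.63, 2.52 and 3.10 in the monolayers and did not pass (limma adjusted p = 0.56), although without spheroid 3 it rose by 0.79 (limma adjusted p = 0.0099). Bmp6, another ligand, rose (0.94 ± 0.20). In the activin and TGF-beta branch, Inhba, the activin A subunit, had 29.03, 23.6 and 16.7 scaled TPM in the spheroids, against 1.96, 0.976 and 1.43 in the monolayers (log2 fold change 3.28 ± 0.63, limma adjusted p = 0.0011). The receptor Tgfbr1 had 109, 107 and 189.8 scaled TPM in the spheroids, against 19.9, 20.4 and 19.8 in the monolayers (log2 fold change 2.64 ± 0.18, limma adjusted p = 9.4e-07). Both were higher in each spheroid than in any monolayer. The ligand Tgfb1 had 107, 98.1 and 93.8 scaled TPM in the spheroids, against 34.6, 36.5 and 38.7 in the monolayers (log2 fold change 1.42 ± 0.13, limma adjusted p = 9.1e-06), and the ligand Tgfb3 fell (-2.13 ± 0.28). Over the whole list of 29 genes tested, 8 rose and 10 fell, close to the shares over all genes tested.

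WNT genes fell in 7 of 15 and rose in 3. Rspo1, the R-spondin that amplifies WNT signals and marks the ovarian surface, had 0.842, 1.28 and 3.36 scaled TPM in the spheroids, against 55.7, 59.3 and 53.02 in the monolayers (log2 fold change -4.43 ± 0.43, limma adjusted p = 1.1e-05). Sfrp1, a secreted WNT antagonist, had 1.96, 2.56 and 15.6 scaled TPM in the spheroids, against 116, 118 and 92.7 in the monolayers (log2 fold change -4.29 ± 0.64, limma adjusted p = 2.2e-04). Axin2, a feedback target of beta-catenin, had 7.35, 6.06 and 8.44 scaled TPM in the spheroids, against 56.5, 50.02 and 48.5 in the monolayers (log2 fold change -2.68 ± 0.15, limma adjusted p = 2.9e-07). Agonist, antagonist and target were all lower in each spheroid than in any monolayer. Wnt6 went the other way, with 99.95, 89.4 and 27.1 scaled TPM in the spheroids, against 0.0836, 0.143 and 0.225 in the monolayers (log2 fold change 5.79 ± 0.90, limma adjusted p = 2.9e-04), the value of spheroid 3 being well below the others. Without spheroid 3 the log2 fold changes of Sfrp1 and Wnt6 were -5.07 and 6.38. NOTCH pathway genes rose in 6 of 12 and fell in 2: the ligands Jag1 (1.87 ± 0.36) and Dll4 (1.50 ± 0.17) rose, and Lfng, the fringe enzyme that modifies NOTCH receptors, fell (-3.15 ± 0.29). The authors' deposited coefficients, converted to log2, were 2.29 for Jag1 and 6.09 for Dll4, so the order of these ligands depends on the method.

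In the IGF, FGF, PDGF and VEGF families, 8 of 29 genes rose and 9 fell, close to the shares over all genes tested (11 and 10 without spheroid 3). Fgf18 had 0.681, 0.854 and 0.667 scaled TPM in the spheroids, against 48.3, 36.6 and 35.4 in the monolayers (log2 fold change -4.56 ± 0.21, limma adjusted p = 5.2e-08). Fgf1 had 17.5, 17.3 and 114 scaled TPM in the spheroids, against 2.39, 2.40 and 2.03 in the monolayers (log2 fold change 3.37 ± 0.74, limma adjusted p = 0.0026). Spheroid 3 was far above the other spheroids for Fgf1, and both ligands were separate between the groups; without spheroid 3 Fgf1 had 2.49. Among FGF receptors, Fgfr1 rose (1.64 ± 0.19) and Fgfr2 fell (-2.36 ± 0.62). Igfbp3, a carrier of insulin-like growth factors, had 361, 489.7 and 281 scaled TPM in the spheroids, against 2521, 2399 and 2183 in the monolayers (log2 fold change -2.68 ± 0.51, limma adjusted p = 0.001). Pdgfa, a platelet-derived growth factor chain, rose (1.87 ± 0.29).

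**Figure D3:**
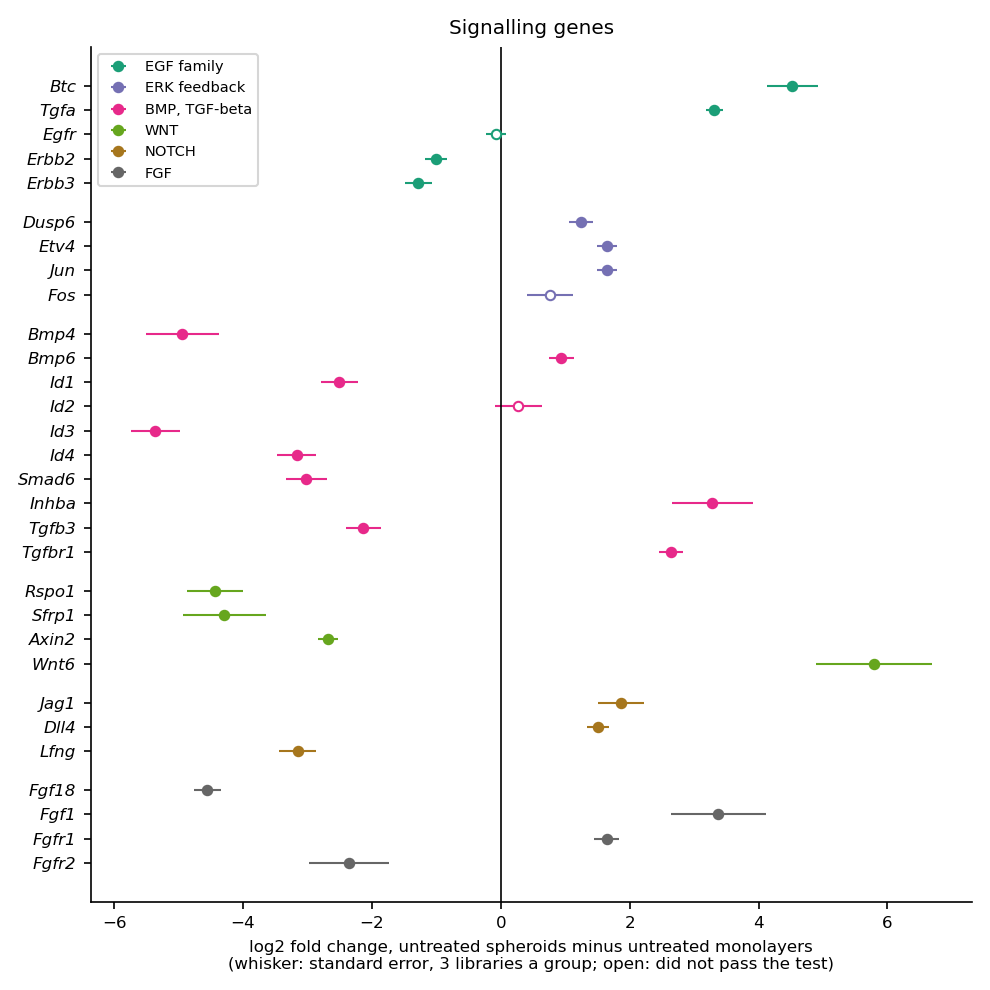
Log2 fold change, untreated spheroids minus untreated monolayers, of 30 ligands, receptors, inhibitors and targets of the EGF, BMP and TGF-beta, WNT, NOTCH and FGF pathways; points are the limma estimates, whiskers the standard error, filled points passed the test and open points did not. Wnt6 lies furthest to the right, followed by Btc, Fgf1, Tgfa and Inhba, and Id3, Bmp4, Fgf18, Rspo1 and Sfrp1 lie beyond -4.

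NF-kB subunits and feedback genes rose in 10 of 15 and fell in 1. Relb, a subunit of the noncanonical branch, had 39.9, 41.2 and 41.2 scaled TPM in the spheroids, against 15.2, 15.1 and 13.9 in the monolayers (log2 fold change 1.41 ± 0.14, limma adjusted p = 1.5e-05). Tnfaip3, the deubiquitinase A20 that ends NF-kB signals, had 7.60, 8.12 and 7.67 scaled TPM in the spheroids, against 1.05, 1.05 and 1.12 in the monolayers (log2 fold change 2.08 ± 0.44, limma adjusted p = 0.0022). The 3 spheroids were close together for both and above all monolayers. Vcam1, an adhesion molecule and a usual NF-kB target, fell (-1.24 ± 0.24). Chemokine genes rose in 6 of 14 and fell in 2. Cxcl1, a neutrophil attractant, had 8.90, 12.8 and 6.33 scaled TPM in the spheroids, against 0.0799, 0.222 and 0.0653 in the monolayers (log2 fold change 3.16 ± 0.56, limma adjusted p = 6.6e-04). Cxcl12, the CXCR4 ligand, had 13.2, 11.5 and 38.2 scaled TPM in the spheroids, against 104, 104 and 97.2 in the monolayers (log2 fold change -2.43 ± 0.44, limma adjusted p = 8.5e-04). Cxcl1 was close to 0 in every monolayer, and spheroid 3 kept the most Cxcl12 among the spheroids. Among cytokines, 5 of 15 rose and 2 fell, against 27.6% and 27.7% of all genes tested. Il1rn, the interleukin 1 receptor antagonist, had 38.8, 36.8 and 9.87 scaled TPM in the spheroids, against 3.24, 1.78 and 0.749 in the monolayers (log2 fold change 3.21 ± 0.70, limma adjusted p = 0.0025). Il18, an inflammasome cytokine, had 10.1, 11.8 and 25.8 scaled TPM in the spheroids, against 142, 129.7 and 130.3 in the monolayers (log2 fold change -3.11 ± 0.27, limma adjusted p = 4.3e-06). Neither gene overlapped between the groups, and without spheroid 3 Il1rn had 3.82.

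Of 11 prostaglandin genes tested, 4 rose and 4 fell, against 27.6% and 27.7% of all genes tested. Ptgds, prostaglandin D synthase, had 73.9, 73.97 and 47.7 scaled TPM in the spheroids, against 1.51, 3.54 and 2.43 in the monolayers (log2 fold change 4.26 ± 0.79, limma adjusted p = 8.9e-04). Ptgs2, the inducible cyclooxygenase, had 868, 872 and 456 scaled TPM in the spheroids, against 106, 106 and 118 in the monolayers (log2 fold change 2.66 ± 0.31, limma adjusted p = 3.5e-05). Ptges, the inducible prostaglandin E synthase, rose at low levels (1.21 ± 0.27). Ptgs1, the constitutive cyclooxygenase, had 116, 114 and 172 scaled TPM in the spheroids, against 143, 139 and 133 in the monolayers and did not pass (limma adjusted p = 0.78). Spheroid 3 lay above the monolayers and the other spheroids below them. Clu, the extracellular chaperone clusterin, had 3671, 3530.0 and 4429 scaled TPM in the spheroids, against 412, 523 and 479.8 in the monolayers (log2 fold change 3.04 ± 0.37, limma adjusted p = 5.1e-05). It was high in every spheroid. Most of its acute phase and complement list did not pass, with 2 of 15 higher and 3 lower.

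Of 22 interferon response genes tested, 6 rose and 5 fell, shares close to those over all genes tested. Of the class I antigen genes, H2-D1 had 1065, 954 and 426 scaled TPM in the spheroids, against 184, 218 and 222 in the monolayers (log2 fold change 1.86 ± 0.29, limma adjusted p = 2.9e-04), H2-K1 rose (1.77 ± 0.36), and so did the immunoproteasome subunit Psmb8 (1.98 ± 0.51). Class I genes share sequence with one another, so their reads may have been split between copies. Irf1, an interferon-induced transcription factor, fell (-1.29 ± 0.32). Spheroid and monolayer values of H2-D1 did not overlap.

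Mesothelial and ovarian surface markers fell in 11 of 15 tested and rose in 2. Msln, mesothelin, had 39.7, 41.7 and 78.9 scaled TPM in the spheroids, against 429, 509 and 551 in the monolayers (log2 fold change -3.26 ± 0.23, limma adjusted p = 1.3e-06). Bnc1, basonuclin 1, a factor of mesothelial and germ cells, had 11.8, 12.8 and 19.7 scaled TPM in the spheroids, against 159, 159.5 and 152 in the monolayers (log2 fold change -3.36 ± 0.28, limma adjusted p = 3.5e-06). Lrrn4, a mesothelial surface protein, fell (-4.49 ± 0.28). All spheroids were below all monolayers, and spheroid 3 was the least reduced for each. Wt1, the Wilms tumour factor that marks the coelomic epithelium, had 69.9, 75.7 and 89.7 scaled TPM in the spheroids, against 189.5, 172 and 169 in the monolayers (log2 fold change -1.17 ± 0.17, limma adjusted p = 1.5e-04). Of 7 keratins tested, 6 fell and 1 rose, and over the alternative ways of processing 3 to 6 fell. Krt18, a simple epithelial keratin, had 81.3, 83.3 and 164 scaled TPM in the spheroids, against 196, 204 and 188 in the monolayers (log2 fold change -0.91 ± 0.36, limma adjusted p = 0.0495). Spheroid 3 was close under the monolayers, and the call was lost when any of the other 5 libraries was left out (limma adjusted p = 0.0909 to 0.156), or when TGFB1 spheroid 2 or any TGFB1 monolayer was left out of the shared estimate of spread (limma adjusted p = 0.0531 to 0.0636). Vim, vimentin, had 1327, 1199.7 and 2183 scaled TPM in the spheroids, against 1072, 977 and 1053 in the monolayers (log2 fold change 0.55 ± 0.19, limma adjusted p = 0.029), and every spheroid was above every monolayer. Vim no longer passed without spheroid 3 (0.29, limma adjusted p = 0.058) or without any 1 monolayer (limma adjusted p = 0.0566 to 0.083). Over the 9 other intermediate filament genes tested, 1 rose and 2 fell. Krt8, the usual partner of Krt18, was listed below 1 scaled TPM in all 6 libraries.

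Of 11 gonadal factors tested, 4 rose and 4 fell, against 27.6% and 27.7% of all genes tested. Without spheroid 3 the counts were 4 and 6. Sox9, the Sertoli and progenitor factor, had 13.7, 12.7 and 19.9 scaled TPM in the spheroids, against 2.97, 3.09 and 3.10 in the monolayers (log2 fold change 1.99 ± 0.17, limma adjusted p = 3.7e-06), and Gata4, a gonadal factor, rose (0.73 ± 0.19). Nr5a1, the steroidogenic factor SF-1, had 123, 116 and 102 scaled TPM in the spheroids, against 52.7, 56.6 and 55.2 in the monolayers (log2 fold change 1.04 ± 0.10, limma adjusted p = 1.2e-05). Sox9 and Nr5a1 were higher in each spheroid than in any monolayer. Of 16 steroid synthesis genes tested, 10 rose and 3 fell. Akr1c18, which inactivates progesterone, had 1432, 1379.7 and 1274 scaled TPM in the spheroids, against 49.3, 56.3 and 77.6 in the monolayers (log2 fold change 4.48 ± 0.72, limma adjusted p = 3.7e-04). Hsd3b1, which makes progesterone, had 19.5, 14.5 and 3.61 scaled TPM in the spheroids, against 0.0414, 0 and 0.0372 in the monolayers (log2 fold change 3.47 ± 0.56, limma adjusted p = 3.5e-04). It was near 0 in monolayers and uneven among spheroids, with 4.12 without spheroid 3. Members of the Akr1c and Hsd3b families resemble one another, so reads may have been split between copies. The SF-1 motif CAAGGTCA was in 0 of 13 windows of this list and in 1.17% of all windows and 0.893% of those of tested genes.

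Squamous genes of the cornified envelope rose in 5 of 9 tested and fell in 1; 16 of the 25 listed did not reach the level for testing. Ivl, involucrin, had 161, 196 and 118 scaled TPM in the spheroids, against 33.4, 33.3 and 42.4 in the monolayers (log2 fold change 2.07 ± 0.31, limma adjusted p = 2.3e-04). Sbsn, suprabasin, had 1149, 1237 and 802 scaled TPM in the spheroids, against 382, 400.1 and 443 in the monolayers (log2 fold change 1.36 ± 0.40, limma adjusted p = 0.014). Both were already present in monolayers. The small proline-rich gene Sprr2h had 77.5, 114 and 8.33 scaled TPM in the spheroids, against 0, 0 and 0 in the monolayers, where 0 means listed at 0. The Sprr2 genes are a cluster of close copies whose reads may have been split.

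Of 8 survival genes of the BCL2 and IAP families, 5 rose and 1 fell. Bcl2l1, which encodes BCL-xL, had 233, 243 and 267 scaled TPM in the spheroids, against 94.2, 96.5 and 106 in the monolayers (log2 fold change 1.32 ± 0.10, limma adjusted p = 2.1e-06). Birc3, an inhibitor of apoptosis induced by NF-kB, had 52.2, 46.6 and 38.1 scaled TPM in the spheroids, against 8.52, 11.5 and 10.9 in the monolayers (log2 fold change 2.04 ± 0.21, limma adjusted p = 1.6e-05), and Bcl2 fell at low levels (-0.77 ± 0.16). Both risers were separate between the groups. Of 18 genes that promote apoptosis, 9 fell and 4 rose. Bak1, a pore-forming effector, had 25.4, 25.3 and 26.1 scaled TPM in the spheroids, against 75.9, 61.6 and 75.2 in the monolayers (log2 fold change -1.43 ± 0.11, limma adjusted p = 2.4e-06), and Bax, the other effector, fell (-0.75 ± 0.08). Bcl2l11, which encodes BIM, the protein best known in anoikis, had 9.65, 10.4 and 12.7 scaled TPM in the spheroids, against 16.2, 26.8 and 19.3 in the monolayers (log2 fold change -0.85 ± 0.19, limma adjusted p = 0.0028). Bak1, Bax and Bcl2l11 were lower in all spheroids without overlap, while Bbc3, which encodes PUMA, rose (0.75 ± 0.14).

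p53 target genes fell in 10 of 17 and rose in 4. Tigar, which lowers glycolytic flux, had 8.16, 9.72 and 6.72 scaled TPM in the spheroids, against 33.5, 36.1 and 34.3 in the monolayers (log2 fold change -1.97 ± 0.12, limma adjusted p = 5.1e-07). Each spheroid was below each monolayer. NRF2 and metal response genes rose in 10 of 20 and fell in 4. Nqo1, a quinone reductase and NRF2 target, had 164, 163 and 109 scaled TPM in the spheroids, against 25.8, 17.4 and 30.6 in the monolayers (log2 fold change 2.53 ± 0.22, limma adjusted p = 5.2e-06). Mt2, a metallothionein, had 26.9, 41.6 and 44.8 scaled TPM in the spheroids, against 0.755, 0.251 and 0.673 in the monolayers (log2 fold change 4.62 ± 0.58, limma adjusted p = 6.7e-05). Both were higher in each spheroid. Slc40a1, the iron exporter ferroportin, rose (1.84 ± 0.35), and Tfrc, the receptor for iron uptake, fell (-1.74 ± 0.29). Hmox1, heme oxygenase, had 362, 457 and 188 scaled TPM in the spheroids, against 657, 539 and 685 in the monolayers and did not pass (limma adjusted p = 0.095), although every spheroid was below every monolayer, and it passed without TGFB1 spheroid 1 in the fit (limma adjusted p = 0.00998). Integrated stress response genes rose in 4 of 17 and fell in 4 (7 and 3 without spheroid 3), and endoplasmic reticulum chaperones rose in 4 of 17 and fell in 6. With all libraries kept, these counts were close to the shares over all genes tested.

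Circadian clock genes rose in 10 of 15, and the other 5 did not pass. Nr1d1, the clock repressor REV-ERB alpha, had 49.01, 47.7 and 58.9 scaled TPM in the spheroids, against 13.6, 13.5 and 12.3 in the monolayers (log2 fold change 1.90 ± 0.13, limma adjusted p = 1.1e-06). Arntl, which encodes BMAL1, had 23.4, 23.2 and 22.4 scaled TPM in the spheroids, against 9.70, 9.95 and 10.1 in the monolayers (log2 fold change 1.14 ± 0.09, limma adjusted p = 2.2e-06). Activator and repressor were both higher in each spheroid. The hour of collection is not given in the labels, and its part in the result was not tested. Lysosome and autophagy genes fell in 8 of 23 and rose in 3. Ctsh, cathepsin H, had 14.9, 12.6 and 10.5 scaled TPM in the spheroids, against 0.0481, 0.450 and 0.0865 in the monolayers (log2 fold change 3.52 ± 0.34, limma adjusted p = 1.1e-05).

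EMT factors, which drive the epithelial to mesenchymal transition, rose in 4 of 6 and fell in 1. Twist1, a bHLH factor, had 105, 102 and 176 scaled TPM in the spheroids, against 54.3, 60.9 and 59.6 in the monolayers (log2 fold change 1.07 ± 0.21, limma adjusted p = 0.0015). Snai1, the factor Snail, had 3.23, 2.94 and 6.62 scaled TPM in the spheroids, against 1.36, 1.21 and 0.920 in the monolayers (log2 fold change 1.22 ± 0.31, limma adjusted p = 0.0067). The fall was in Snai3, with 0, 0.0665 and 0 scaled TPM in the spheroids, against 2.12, 3.02 and 2.14 in the monolayers (log2 fold change -1.73 ± 0.18, limma adjusted p = 1.4e-05). Stem cell genes rose in 6 of 15 and fell in 2. Aldh1a7, an aldehyde dehydrogenase, had 8.91, 8.72 and 1.99 scaled TPM in the spheroids, against 0.130, 0.0838 and 0.205 in the monolayers (log2 fold change 2.54 ± 0.53, limma adjusted p = 0.002). Abcg2, the side population transporter, rose (0.50 ± 0.10), and Ly6e fell (-2.21 ± 0.40). Ly6a, the stem cell antigen Sca-1, had 2.04, 1.63 and 1.19 scaled TPM in the spheroids, against 0.905, 1.73 and 2.42 in the monolayers, and the groups overlapped (limma adjusted p = 0.99). Aldh1a1, the usual marker of the family, had 744, 721 and 426 scaled TPM in the spheroids, against 523, 512 and 595 in the monolayers, and the groups overlapped (limma adjusted p = 0.83). Aldh1a1 and Aldh1a7 are close copies, so their reads may have been split.

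Among the 15 largest increases by the rule for named genes (called, no overlap between groups, mean of at least 10 scaled TPM in the higher group), several had no list of their own. Kctd14 had 199, 235 and 127 scaled TPM in the spheroids, against 0.144, 0.390 and 0.219 in the monolayers (log2 fold change 7.19 ± 1.07, limma adjusted p = 2.1e-04). Gsta2, a glutathione transferase with close copies, had 361, 335 and 64.9 scaled TPM in the spheroids, against 0.538, 0.432 and 0.241 in the monolayers (log2 fold change 7.16 ± 1.09, limma adjusted p = 2.5e-04). Clec2h and Klrb1a, a C-type lectin and a lectin-like receptor, had log2 fold changes of 6.03 ± 0.91 and 5.96 ± 0.42. Tspan11, a tetraspanin, and Efhd1, a mitochondrial calcium-binding protein, rose by 6.47 ± 1.24 and 6.24 ± 0.70. Monolayer values of these 6 genes were below 1 scaled TPM in all 3 libraries, and spheroid 3 was the lowest spheroid for all of them except Klrb1a. Cela3b, an elastase, had 161, 170.1 and 14.1 scaled TPM in the spheroids, against 0.160, 0.137 and 0.144 in the monolayers (log2 fold change 6.03 ± 1.24, limma adjusted p = 0.0018). Spheroid 3 was far below the others for it, and without spheroid 3 the log2 fold changes of Gsta2, Tspan11 and Cela3b were 7.96, 7.46 and 7.18. The rank ended between Igfbp5 (5.94 ± 0.62) and the next gene, Wnt6 (5.79 ± 0.90).

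Of the 15 largest decreases, Fam180a had 0.236, 0 and 0.0704 scaled TPM in the spheroids, against 43.3, 54.5 and 47.1 in the monolayers (log2 fold change -5.48 ± 0.48, limma adjusted p = 5.2e-06). Hal, histidine ammonia lyase, had 0.520, 0.723 and 0.528 scaled TPM in the spheroids, against 59.2, 61.04 and 53.7 in the monolayers (log2 fold change -5.21 ± 0.46, limma adjusted p = 5.2e-06). Neither gene reached 1 scaled TPM in a spheroid. Atoh8, a bHLH factor, had 0.348, 0.309 and 2.14 scaled TPM in the spheroids, against 47.2, 51.8 and 50.8 in the monolayers (log2 fold change -4.85 ± 0.36, limma adjusted p = 1.7e-06). Akap5, an anchor for protein kinase A, had 0.508, 0.805 and 1.17 scaled TPM in the spheroids, against 46.3, 51.8 and 45.5 in the monolayers (log2 fold change -4.75 ± 0.17, limma adjusted p = 1.4e-08). All 4 were near or under 2 scaled TPM in each spheroid and far above that in each monolayer. The rank ended between Ccnb2 (-4.72 ± 0.20) and Ccnb1 (-4.65 ± 0.19).

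In the authors' deposited table of coefficients, given in natural log and converted here to log2, spheroid coefficients were -4.51 for Amotl2, 6.30 for Btc, -7.81 for Nid2 and 2.31 for Bnip3. In the authors' deposited table, 12874 genes tested here had a coefficient, and for 7246 of the 7246 called ones its sign was that of the fold change computed here, with a median of coefficient minus fold change of -0.10 on the log2 scale. Both come from the same libraries.

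Markers of other ovarian cell types were checked beside these results. The summed surface list reached 1229 to 1505 scaled TPM in spheroids, against 2859 to 2902 in monolayers, while Calb2 and Aldh1a2 were listed at 0 in all 6 libraries. In spheroids the sum came mostly from Aldh1a1, Procr and Igfbp5, the members with the highest spheroid values. The other members summed to 273 to 410.1 in spheroids, against 2119 to 2201 in monolayers. Members were set aside here by their spheroid values, which lowers the spheroid remainder by construction. That gap therefore adds nothing to the full sums. Of 10 leukocyte markers, 9 were below 1 scaled TPM in all 6 libraries, Ptprc and Adgre1 included, and the summed list reached 14.9 to 67.4 in spheroids and 19.3 to 26.8 in monolayers mostly through Cd68. Cd68, a lysosomal protein that is high in macrophages, had 65.8, 62.2 and 14.2 scaled TPM in the spheroids, against 17.7, 25.3 and 23.6 in the monolayers and did not pass (limma adjusted p = 0.3), but without spheroid 3 it rose by 1.50 (limma adjusted p = 0.039). The endothelial list summed to 2.51 to 7.58 in spheroids, against 1.14 to 1.30 in monolayers, with Cldn5 at 0; Cdh5, VE-cadherin, rose at low levels (1.33 ± 0.34). All 6 tested granulosa and theca markers rose, and the list of 11 summed to 1521 to 2374 in spheroids and 311 to 354 in monolayers, mostly Star, while Fshr and Lhcgr were at 0 in all 6 libraries and Cyp19a1 and Amh below 1. Stroma and fibroblast markers summed to 723 to 858 in spheroids, against 1924 to 2057 in monolayers, 4 falling and 1 rising of 7 tested, with Mfap4 at 0. Thy1, a fibroblast and stromal surface marker, had 13.9, 16.1 and 41.3 scaled TPM in the spheroids, against 283, 268 and 294 in the monolayers (log2 fold change -3.68 ± 0.35, limma adjusted p = 9.3e-06). The oviductal list summed to 240.5 to 295 in spheroids and 281 to 339 in monolayers, with Epcam and Elf3 at 0, and Pax8 rose to 5.09, 8.99 and 1.21 scaled TPM in spheroids, against 0.167, 0.0164 and 0.0515 in monolayers (2.25 ± 0.54, and 2.86 without spheroid 3). Of the oocyte markers, Ddx4, a germ cell RNA helicase, had 0.195, 0.260 and 0.581 scaled TPM in the spheroids, against 22.8, 9.97 and 23.5 in the monolayers (log2 fold change -3.80 ± 0.27, limma adjusted p = 1.3e-06), while Zp2 and Dppa3 were at 0. The part of such cells in the results was not tested.

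Whether the spheroid effect differed under TGFB1 was tested as a difference of both effects, which share no library. The spheroids had TGFB1 for 4 days before low-attachment culture and the labels give no time for the monolayers, so exposure may differ between them. Over all genes tested 15.8% differed (limma adjusted p under 0.05), and of the 23 genes plotted, chosen with these values known, 18 did. The TGFB1 spheroids correlated with one another at 0.965 to 0.977, and TGFB1 spheroid 3 lay nearer the untreated spheroids (r = 0.935 to 0.946) than TGFB1 spheroids 1 and 2 did (r = 0.893 to 0.916). TGFB1 monolayer 1 correlated at 0.983 to 0.984 with the other TGFB1 monolayers, which shared 0.994. The number of genes that differed, 2138, was 2293 without TGFB1 spheroid 3, 1833 without TGFB1 monolayer 1 and lowest, 1307, without TGFB1 spheroid 2.

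Id1 had 423, 284 and 271 scaled TPM in TGFB1 spheroids, against 209, 394 and 386 in TGFB1 monolayers. Its log2 change was 0.01 ± 0.29 between TGFB1 spheroids and TGFB1 monolayers, against -2.51 ± 0.29 in untreated cells, a difference of 2.52 ± 0.41 (limma adjusted p = 0.0026). Dcn had 1064, 458 and 388 scaled TPM in TGFB1 spheroids, against 635, 580.1 and 595 in TGFB1 monolayers. It changed by -0.07 ± 0.28 under TGFB1, against -2.44 ± 0.28 without it (difference 2.37 ± 0.40, limma adjusted p = 0.0032). Clu had 356, 620.5 and 1431 scaled TPM in TGFB1 spheroids, against 570.2, 523 and 529 in TGFB1 monolayers. It changed by 0.33 ± 0.37 under TGFB1, against 3.04 ± 0.37 without it (difference -2.70 ± 0.52, limma adjusted p = 0.0062). For these 3 genes the TGFB1 groups overlapped, with spheroids on both sides of the monolayers for Dcn and Clu, so a mean effect near 0 does not show that each library was unchanged. Each of the 3 differences passed when any 1 of the 12 libraries was left out. Btc went further under TGFB1, with 7.40 ± 0.39 against 4.53 ± 0.39 without it (difference 2.87 ± 0.55, limma adjusted p = 0.0062), and so did Inhba, with 7.42 ± 0.63 against 3.28 ± 0.63 (difference 4.14 ± 0.89, limma adjusted p = 0.011). Cxcl14, a chemokine, turned direction, with 3.23 ± 0.31 under TGFB1 and -2.44 ± 0.31 without it (difference 5.67 ± 0.43, limma adjusted p = 2.0e-05). The differences of Amotl2 (0.16 ± 0.09, limma adjusted p = 0.26), Plk1 (0.46 ± 0.20, limma adjusted p = 0.14) and Axin2 (0.03 ± 0.22, limma adjusted p = 0.95) did not pass, which does not show that the effects are equal.

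**Figure D4:**
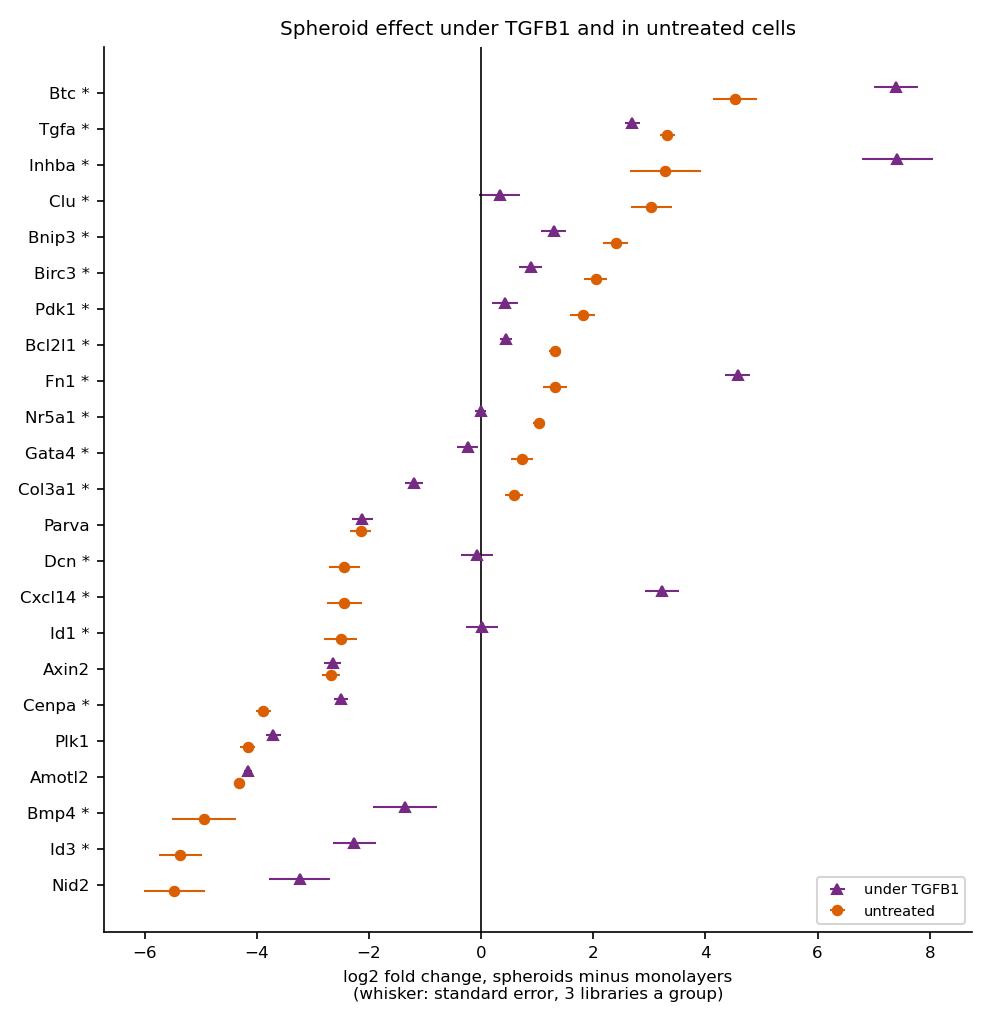
Log2 spheroid effect of named genes under TGFB1 (triangles, upper of each pair) and in untreated cells (circles, lower of each pair), with standard errors as whiskers; gene names marked * had a difference between the effects that passed the test. The mean effects of Id1, Dcn and Clu lie near 0 under TGFB1, where their libraries overlapped, whereas Amotl2, Plk1 and Axin2 lie close together in both.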

How the data were processed

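Poly(A) RNA of mOSE cultures was sequenced from directional libraries, per the labels' protocols, and quantified on GRCm38 with kallisto 0.44.0 and sleuth 0.30.0, per the submitters' processing notes. The authors deposited 1 table of the sphere experiment whose values are a signal per gene, TPM rescaled between libraries ("scaled TPM"); how they were rescaled is not given in the sources used here. A deposited table of the authors' own comparison holds spheroid coefficients in natural log, divided here by the natural log of 2. No counts were used.

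From the scaled TPM, log2(value + 1) was fitted in limma 3.58.1 (R 4.3.3, moderated variance with a trend) over 12 libraries, the 6 untreated and the 6 TGFB1 libraries, so that they share 1 estimate of spread. Genes at 1 scaled TPM or more in at least 3 of the 12 libraries were tested, 13509 of 35687 rows, with Benjamini-Hochberg adjustment over all of them. The contrasts were untreated spheroids minus untreated monolayers, and the same difference under TGFB1 minus the untreated one. The fit was tested on simulated data. A symbol with several rows was read from the row with the highest mean, since 146 tested rows repeated another row exactly. The 57 gene lists, the members and the promoter motifs were chosen with earlier results of these data known. Named genes are the 15 largest increases and decreases among called genes without overlap between groups and with a mean of at least 10 scaled TPM in the higher group, members of the lists, and the genes the study names (Snai1, Brca1, Tgfb1, Ly6a, Ptgs2). No pairing was used. Same-numbered libraries did not deviate together, but with 3 libraries a group this cannot tell whether the cultures were paired. Promoter sequences are RefSeq's on GRCm38.p6, and exons are from GENCODE M21. Alternatives were another pseudocount (0.1 and 5), no filter or a filter at 5, other scalings, a replicate block, library quality weights, no variance trend, only the 6 untreated libraries, monolayers 1 and 2 averaged, and leaving out each untreated library and, added after seeing the data, each TGFB1 library. The other 12 libraries of the series, with Snail, vector or BRCA1 changes, were not used here, and some list members are not reported here by name.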

Additional observations from a re-analysis of the deposited data

Results flagged for a closer look

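For 18 genes the spheroid effect under TGFB1 differed from the spheroid effect in untreated cells, by a test of the difference itself (limma adjusted p under 0.05), and each difference below is the log2 effect under TGFB1 minus the log2 untreated effect. The genes were chosen for this comparison with their values known, and no explanation was tested.

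Among BMP genes and their targets, the differences were 3.59 ± 0.80 for Bmp4, 3.10 ± 0.54 for Id3 and 2.52 ± 0.41 for Id1, where an untreated decrease was smaller or missing under TGFB1. Cenpa, the centromere histone, had a difference of 1.39 ± 0.19 in the same sense. Of matrix genes, Fn1 differed by 3.26 ± 0.31, Dcn by 2.37 ± 0.40 and Col3a1, which fell under TGFB1 (-1.20 ± 0.17) and rose without it (0.59 ± 0.17), by -1.79 ± 0.23. Of secreted signals, Cxcl14 differed by 5.67 ± 0.43, Inhba by 4.14 ± 0.89, Btc by 2.87 ± 0.55 and Clu by -2.70 ± 0.52.

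Smaller differences were -1.39 ± 0.32 for Pdk1 and -0.87 ± 0.14 for Bcl2l1, whose untreated increases were larger than those under TGFB1. Nr5a1 had a difference of -1.04 ± 0.15, with an untreated increase and -0.01 ± 0.10 under TGFB1. The differences of Bnip3 (-1.10 ± 0.32), Gata4 (-0.97 ± 0.27), Birc3 (-1.16 ± 0.30) and Tgfa (-0.62 ± 0.19) lost the call when single libraries were left out. For Bnip3 this held for each of the 6 untreated libraries, TGFB1 spheroids 1 and 2 and TGFB1 monolayers 2 and 3, with limma adjusted p from 0.0561 to 0.0863. For Gata4 it held for every untreated library except spheroid 3, for TGFB1 spheroid 2 and for TGFB1 monolayers 2 and 3, with limma adjusted p up to 0.0805. For Tgfa it held for every untreated library except spheroid 3 and every TGFB1 library except spheroid 3, with limma adjusted p up to 0.106. Birc3 lost it without untreated spheroid 1 or 2, untreated monolayer 1, TGFB1 spheroid 2 or TGFB1 monolayer 2, with limma adjusted p up to 0.0615.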

How the results depend on the processing

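The count of called genes, 7461, lay between 6451 (filter at 5) and 9749 (library quality weights) in the alternatives that kept the 6 untreated libraries apart, was 6587 with monolayers 1 and 2 averaged, and ranged from 6386 to 7515 when each untreated library was left out. The count of genes whose effect differed under TGFB1, 2138, was 4385 with library quality weights and 1393 (without monolayer 3) to 2658 when each untreated library was left out; the cause was not tested. Leaving out each TGFB1 library, chosen after seeing the data, gave 7174 to 7812 and 1307 (without TGFB1 spheroid 2) to 2293. With a replicate block the counts were 7228 and 1827. Same-numbered libraries had correlations of deviations of 0.030, -0.062 and -0.025. With 3 libraries a group, these values cannot tell whether the cultures were paired. The fit of only the 6 untreated libraries gives no value for the TGFB1 difference. Of 205 named genes, 194 stayed on the same side of the threshold for the untreated comparison in every alternative that tested them. Of 23 genes tested for the difference, 17 did. None of the 5434 values changed direction where either value passed. Genes that did not pass could change sign, as Cdh2 did without spheroid 3 (0.05 and -0.09). The majority direction of 4 of 57 lists turned in at least 1 alternative (HIF factors, acute phase, IGF and FGF, interferon), and the median of 3 lists changed sign with another scaling (fatty acid, IGF and FGF, mitochondrially encoded). Counting repeated rows once, an alternative chosen after seeing the data, gave 7375 and 2115 calls. Depth is unknown, so counting error could not be set against the spread between libraries, and no counting error can be given for low values such as those of Npnt or Snai3 in spheroids.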
